A study of Rattus norvegicus with 12 samples.

Results

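The Ces1 and Ces2 carboxylesterases are serine hydrolases that sit mostly in the lumen of the endoplasmic reticulum of hepatocytes. Of 9 such genes listed for study, 6 were measured here among the 18166 genes tested: Ces1e of the Ces1 group and Ces2a, Ces2c, Ces2e, Ces2h and Ces2j of the Ces2 group. Members were chosen by symbol, from transcript clusters annotated to 1 symbol alone, and between several clusters of a gene by the highest mean signal over the 12 arrays. Each of the 6 genes had 1 such cluster, so that the signal decided nothing. Ces1d and Ces1f are annotated only on clusters shared with the relatives Ces1dl1 and Cesl1, and these 2 genes and Ces1c were not analysed here. The list was drawn up with earlier results of these data known, so the number of its members that changed is a description.

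Liver RNA of each rat was hybridised to 1 Affymetrix Rat Gene 2.0 ST array. All rats were male obese Zucker rats, homozygous (fa/fa) for the defective allele of the leptin receptor gene, aged 5 to 6 weeks at the start and fed for 4 weeks until they were killed on day 29. The control group ate a diet without the supplement, and the PSC group ate a diet of comparable energy and nutrient content with 5% PSC, the labels' name for a product that the series title describes as a biotechnologically produced oyster mushroom. Each feeding group held 12 rats, kept 2 to a cage, of which 6 per group were drawn at random for the arrays. There was no lean group, so every comparison is between diets within obese males, and cage mates among the rats profiled would not be fully independent.

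Carboxylesterases cleave ester, amide and thioester bonds, and in the liver they hydrolyse ester drugs and other foreign esters as well as acylglycerols, cholesteryl esters and retinyl esters. Many carry a tail signal that retains them in the endoplasmic reticulum. Rodents have more of these genes than humans do, arranged in tandem arrays of close relatives, and several are known to respond to the nuclear receptors that sense drugs and lipids.

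Within this group, Ces2c and Ces2h were lower in the PSC-fed rats and the other 4 did not pass the test. Ces2c, an acylcarnitine hydrolase of liver microsomes, was 1.99-fold lower, and Ces2h was 1.33-fold lower (limma, adjusted p = 0.0183 and 0.0292, n = 6 per diet). These were 2 of 6 measured members, where 1.89% of all genes tested were lower by the same rule and 2.60% changed in either direction. Leaving out 1 array moved these calls, that of Ces2h more often. Without control replicate 1 neither passed, with Ces2c just past the threshold (limma adjusted p = 0.05002). Without control replicate 3, 4, 5 or 6 or PSC replicate 1 or 5 only Ces2c did. None of the 6 was higher by limma, where 0.716% of all genes were. At an unadjusted p below 0.05, 0 were higher. The shares over all genes given here and below hold for the adjusted p only. Unadjusted, at least 3359 of the 18166 genes had a limma p of 0.047 or less, in either direction. The median log2 fold change of the members was -0.0017, beside 0.013 over all genes. Values below are log2 signals as deposited, a log2 fold change is the PSC mean minus the control mean, and the adjusted p comes from the fit across all genes with a threshold of 0.05.

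**Figure D1:**
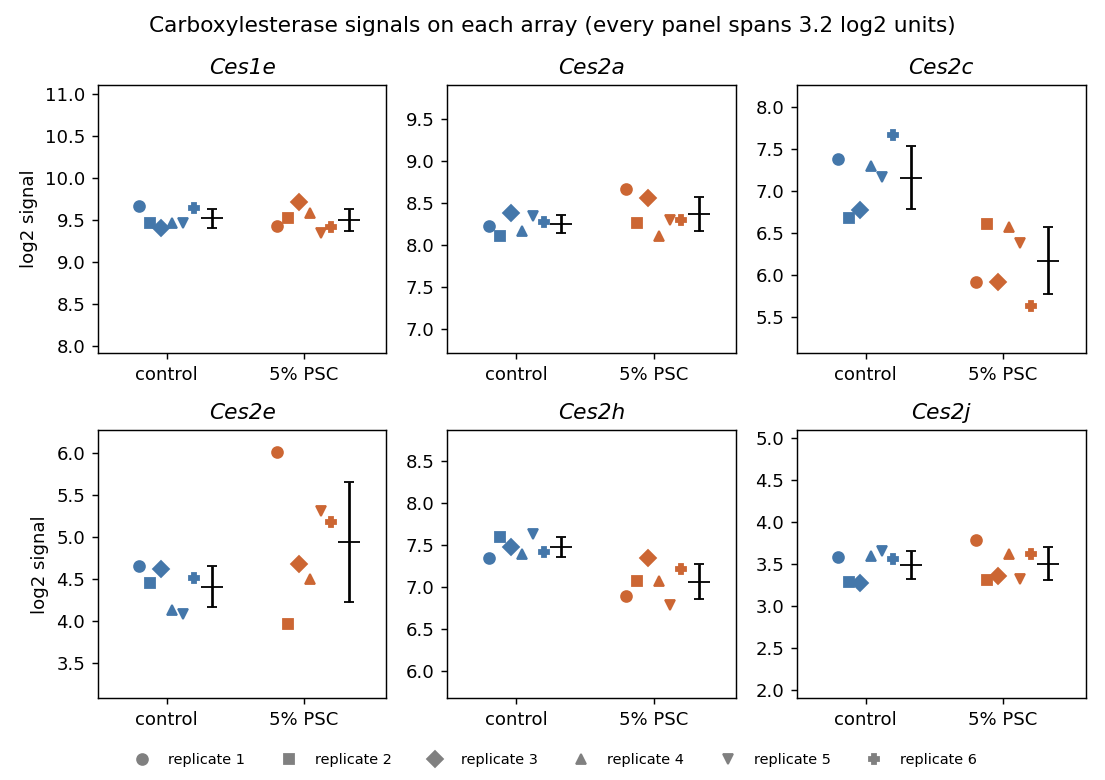
Log2 signal (vertical axis) of the 6 carboxylesterase genes on each of the 12 arrays, control in blue and 5% PSC in orange, with symbols for replicate numbers and the mean ± SD in black beside each diet. The 2 diets do not overlap for Ces2c, meet at a signal of 7.35 for Ces2h, and overlap for the other 4 genes.

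Ces2c lies on rat chromosome 1 next to its relative Ces2i, whereas the other members lie on chromosome 19 (RefSeq annotation of the assembly GRCr8). In the control rats its log2 signals were 7.38, 6.68, 6.77, 7.30, 7.17 and 7.67 for replicates 1 to 6. In the PSC-fed rats they were 5.92, 6.61, 5.92, 6.57, 6.38 and 5.63. All 6 PSC arrays were below every control, with the closest pair at 6.61 and 6.68. That separation was found for 1.48% of all genes, and the opposite one, found for none of the members, for 0.710%. The mean went from 7.16 ± 0.38 to 6.17 ± 0.40 (SD, n = 6), which gave a difference of -0.99 in log2 signal (SE 0.19, 95% interval -1.40 to -0.58). PSC replicates 1, 3 and 6 were lowest, and control replicate 6 was highest. Without control replicate 1 the adjusted p was 0.05002, just past the threshold, and without any other single array it was at most 0.0440.

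Ces2h lies on chromosome 19 beside Ces2g, Ces3a and Ces4a. Its control signals were 7.35, 7.60, 7.48, 7.40, 7.64 and 7.42. Its PSC signals were 6.89, 7.08, 7.35, 7.07, 6.79 and 7.22. The PSC arrays were lower, with 5 of 6 below every control, and PSC replicate 3 equalled the lowest control. The mean went from 7.48 ± 0.12 to 7.07 ± 0.21 (SD, n = 6), which gave a difference of -0.42 in log2 signal (SE 0.09, 95% interval -0.61 to -0.22). Ces2h no longer passed in 7 of the 12 refits with 1 array removed, those without control replicate 1, 3, 4, 5 or 6 or PSC replicate 1 or 5. The adjusted p over the 12 refits ran from 0.0215 to 0.0611, and the log2 fold change from -0.47 to -0.36.

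**Figure D2:**
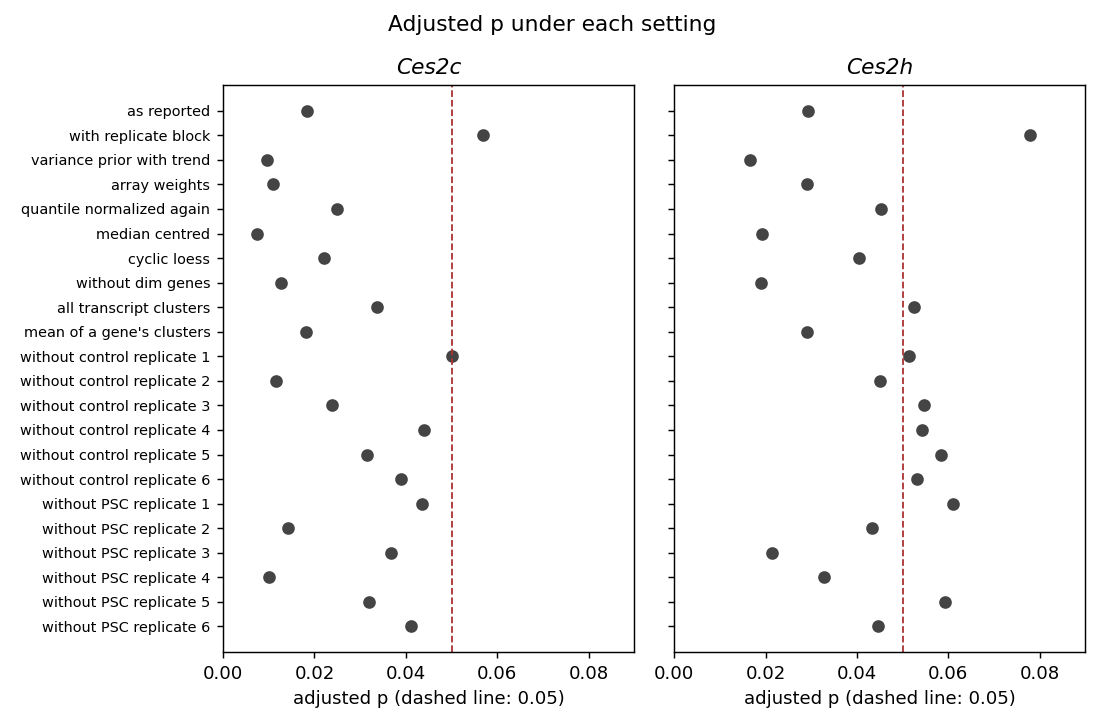
Adjusted p (horizontal axis) of Ces2c and Ces2h in the reported fit and under each other setting, with the threshold of 0.05 as a dashed line. Ces2c lies past the line with the replicate block (0.0569) and touches it without control replicate 1 (0.05002), whereas Ces2h lies past it in 9 settings.

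The sequences before the annotated starts of these 2 genes are shown because both fell, so that a reader can see what the upstream regions share. The table of RefSeq promoters for GRCr8 held 5 of the 6 members, all but Ces2a. Below are the 250 bases before each start, on the plus strand, at chr1:270376951-270377200 for Ces2c and chr19:49883914-49884163 for Ces2h. Capitals mark CCTGCCTGG, the CCAAT box as ATTGG or CCAAT, and AGTTCA or TGAACT that nuclear receptors such as PXR can bind, each on either strand. CCTGCCTGG is the longest stretch common to the windows of Ces2c, Ces2e, Ces2g, Ces2i and Ces2j. It was chosen after the sequences were read, from a set without Ces2h.
Ces2c: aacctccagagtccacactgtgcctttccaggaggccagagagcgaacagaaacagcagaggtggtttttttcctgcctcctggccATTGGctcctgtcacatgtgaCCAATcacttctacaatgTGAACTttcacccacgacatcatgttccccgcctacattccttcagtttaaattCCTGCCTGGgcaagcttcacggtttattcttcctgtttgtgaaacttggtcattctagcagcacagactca
Ces2h: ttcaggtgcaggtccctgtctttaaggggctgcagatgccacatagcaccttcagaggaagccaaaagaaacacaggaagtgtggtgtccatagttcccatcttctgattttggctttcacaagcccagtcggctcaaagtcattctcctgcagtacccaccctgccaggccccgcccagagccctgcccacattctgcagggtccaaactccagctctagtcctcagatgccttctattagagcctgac

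Ces2c held CCTGCCTGG once, ATTGG once on each strand and TGAACT once, and Ces2h held none of these. That Ces2c holds CCTGCCTGG was fixed by how the stretch was chosen, and Ces2h was not among the genes it was chosen from. Of 33469 upstream windows of the same length, 0.884% held CCTGCCTGG, 34% ATTGG and 12.2% AGTTCA, counting both strands. The TATA box (TATAAA, in 12.9% of windows) and AGGTCA, another receptor motif (14.1%) were in neither. A match or its absence describes these letters only, and says nothing of whether a factor binds there.

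The stretch in Ces2c is shared with relatives that did not pass the test, which is why their windows are set beside it. Each window has 50 bases of the plus strand around the match nearest the start, with CCTGCCTGG in capitals. They lie at chr1:270377110-270377159 (Ces2c), chr19:163791-163840 (Ces2e), chr19:49856610-49856659 (Ces2g), chr1:270307504-270307553 (Ces2i) and chr19:304963-305012 (Ces2j).
Ces2c: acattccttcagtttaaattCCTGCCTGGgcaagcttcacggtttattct
Ces2e: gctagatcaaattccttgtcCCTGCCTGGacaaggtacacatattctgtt
Ces2g: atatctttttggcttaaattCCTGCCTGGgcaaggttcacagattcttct
Ces2i: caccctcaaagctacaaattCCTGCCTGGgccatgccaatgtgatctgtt
Ces2j: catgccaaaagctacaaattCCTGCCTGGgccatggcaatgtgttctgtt
The longer stretch AAATTCCTGCCTGGGC, which contains the shorter one and is common to Ces2c, Ces2g, Ces2i and Ces2j, stood in 5 of the 33469 windows on either strand, and these 5 belong to Ces2b, Ces2c, Ces2g, Ces2i and Ces2j. In Ces2e the letters before CCTGCCTGG differ. The stretch was taken as the longest common to Ces2c, Ces2g, Ces2i and Ces2j, so that these genes share it follows from the choice. Of them Ces2c fell, and the others did not pass the test. Ces2i and Ces2j were dim, with mean log2 signals of 2.37 and 3.50, where a fall could hardly be seen. Whether the stretch bears on the fall of Ces2c was not tested.

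Ces2e, known as a pyrethroid hydrolase, had the widest spread of the members in PSC-fed rats, whereas in controls Ces2c did. Its control signals were 4.65, 4.45, 4.61, 4.13, 4.08 and 4.51. Its PSC signals were 6.01, 3.96, 4.68, 4.50, 5.31 and 5.17. Of the PSC arrays, 4 were above every control and PSC replicate 2 was below every control. The SD was 0.72 in PSC-fed rats and 0.24 in controls, a ratio of 2.94. The log2 fold change was 0.53 (SE 0.26, 95% interval -0.015 to 1.08), and Ces2e did not pass (adjusted p = 0.275). The value leaned on single arrays: without PSC replicate 1 the log2 fold change of Ces2e was 0.32 (adjusted p = 0.414), and without PSC replicate 2 it was 0.73 (adjusted p = 0.0994).

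Ces2a, which RefSeq annotates as a transcribed pseudogene in GRCr8, had control signals of 8.23, 8.11, 8.38, 8.16, 8.34 and 8.27. Its PSC signals were 8.66, 8.26, 8.56, 8.11, 8.30 and 8.30. The diets overlapped, with PSC replicates 1 and 3 above every control. The log2 fold change of Ces2a was 0.12 (95% interval -0.073 to 0.31, adjusted p = 0.494), and 0.058 without PSC replicate 1 or 0.078 without PSC replicate 3.

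Ces2j ran from 3.27 to 3.65 in controls (median 3.57) and from 3.31 to 3.78 in PSC-fed rats (median 3.49). These signals were below the median signal of every array (4.71 to 4.85), where RMA compresses differences. Its log2 fold change was 0.012 (95% interval -0.20 to 0.22), and its sign turned under 3 other scalings. Ces2a, Ces2e and Ces2j are neighbours at one end of chromosome 19, and their log2 fold changes were 0.12, 0.53 and 0.012.

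Ces1e, also called egasyn, holds the lysosomal enzyme beta-glucuronidase in the endoplasmic reticulum. Its signals ran from 9.41 to 9.67 in controls (median 9.47) and from 9.35 to 9.72 in PSC-fed rats (median 9.48). The diets overlapped almost fully, with a log2 fold change of -0.015 (95% interval -0.17 to 0.14, adjusted p = 0.93), whose sign turned with array weights and with cyclic loess. A change beyond the bounds of -0.17 and 0.14 would lie outside the 95% interval. Gusb, which encodes beta-glucuronidase, went from 6.495 ± 0.11 to 6.48 ± 0.09 (SD, n = 6), with an interval of -0.16 to 0.12. Its sign turned after a further quantile normalization and with cyclic loess.

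**Figure D3:**
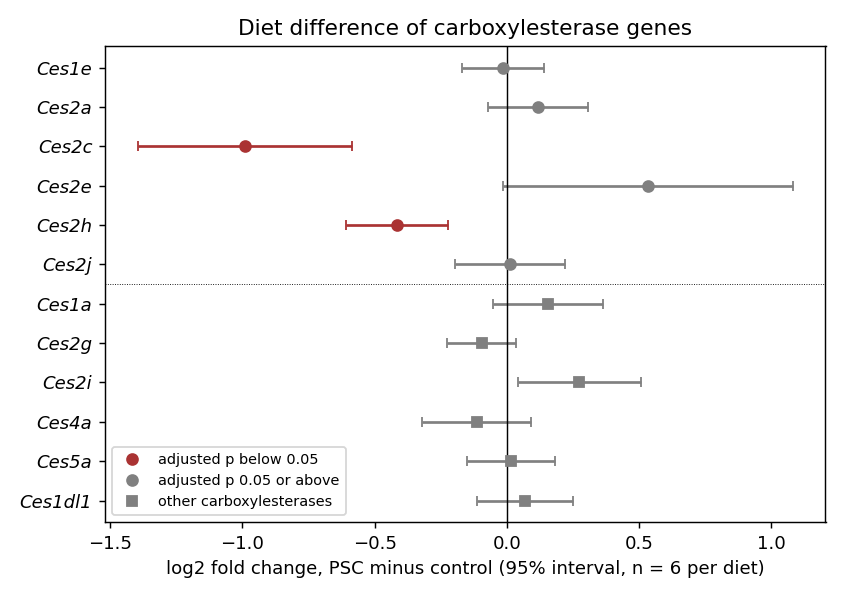
Log2 fold change of PSC over control (horizontal axis) with its 95% interval for the 6 members (circles) and 6 other carboxylesterase genes (squares), n = 6 rats per diet, red where the adjusted p is below 0.05. Ces2c and Ces2h lie below 0, and the intervals of the members that did not pass include 0.

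Of the other carboxylesterase genes on the array, 5 came from a list of 18 symbols, and 0 of the 5 passed by limma, while 1, Ces2i, had an unadjusted p below 0.05. Their median log2 fold change was 0.015, beside 0.013 over all genes. Ces2i, the neighbour of Ces2c, had signals from 1.93 to 2.53 in controls and from 2.30 to 2.84 in PSC-fed rats, among the dim signals of the array. The log2 fold change of Ces2i was 0.28 (95% interval 0.042 to 0.51, adjusted p = 0.185), beside -0.99 for Ces2c. Ces2g, the neighbour of Ces2h, had -0.095 (95% interval -0.23 to 0.036), beside -0.42 for Ces2h. Whether these neighbours differ in their response was not tested. Ces1a had 0.16, Ces4a -0.11 and Ces5a 0.015, with adjusted p from 0.402 to 0.936, and the sign of Ces5a turned under 4 other settings. Ces1dl1, which the list lacked and which was added after its values were known, had 0.070 (adjusted p = 0.687). Probes for genes this alike may bind transcripts of relatives, so a value may hold signal of more than 1 gene.

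The members did not vary as a block from rat to rat. After the mean of each diet was taken off, the 15 pairs of members had Pearson correlations between -0.46 and 0.52 over the 12 arrays. The 2 genes that fell had -0.44 with each other. PSC replicates 3 and 6, which were among the lowest for Ces2c, were the highest PSC arrays for Ces2h. PSC replicate 1, as low for Ces2c as replicate 3 (5.92), was among the lowest for Ces2h (6.89). Ces2a and Ces2e had the highest value, 0.52. Ces2c and its neighbour Ces2i, which is no member, had -0.589, and Ces2h and its neighbour Ces2g had 0.272. These correlations describe 12 arrays that share their processing.

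The genes most like Ces2c from rat to rat were Abcb1b, Emc10 and Anxa5, with within-diet Pearson correlations of 0.975, 0.964 and 0.953 over 12 arrays among 9047 genes compared. Being the highest of so many, such values are high for any gene: the top value of the 6 members ran from 0.875 to 0.975, and that of Ces2c was the upper end. For Abcb1b, a P-glycoprotein efflux pump, Spearman's rho was 0.956, and r was 0.958 without the 2 arrays farthest from the median for Ces2c. The correlation of Ces2c with Abcb1b was 0.961 in the controls alone and 0.990 in the PSC-fed rats alone. Abcb1b ran from 6.74 to 8.83 in controls and from 4.85 to 6.61 in PSC-fed rats, with the diets apart and a difference of -1.94 (SE 0.35, limma adjusted p = 0.0133).

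Anxa5, a phospholipid-binding annexin, fell too, from 10.05 ± 0.34 to 9.06 ± 0.34 (log2 fold change -0.99, adjusted p = 0.0095). Emc10, a subunit of the membrane protein insertion complex of the endoplasmic reticulum, had -0.16 and did not pass (adjusted p = 0.462), although it followed Ces2c within each diet (0.970 in controls and 0.975 in PSC-fed rats). The genes most like Ces2h were Rps8l1, Hao2 and Ypel3, at 0.875, 0.870 and 0.846. None of the 3 passed for diet, with log2 fold changes of -0.098, 0.24 and 0.075 and adjusted p of 0.717, 0.268 and 0.571.

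**Figure D4:**
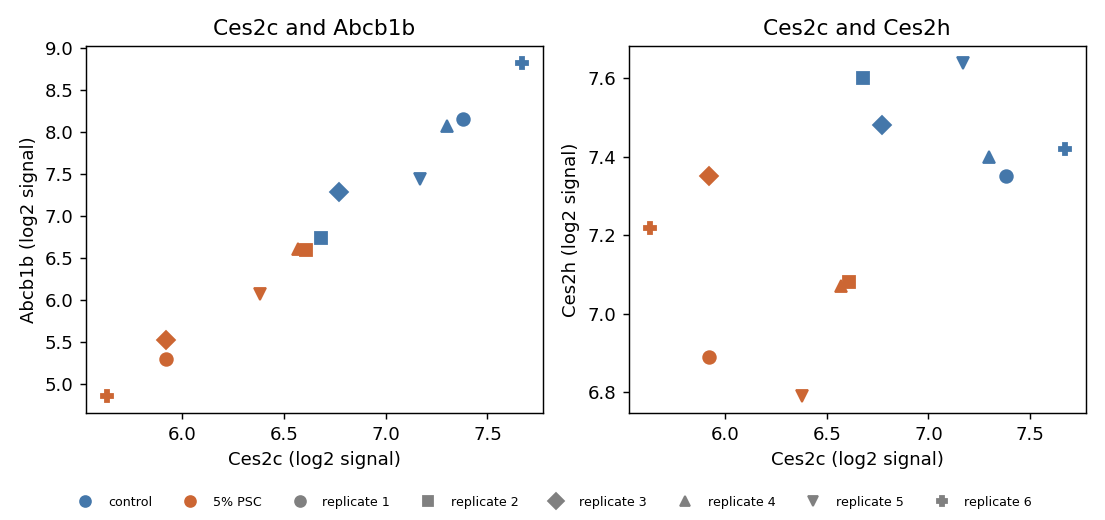
Log2 signals of Ces2c (horizontal axes) against Abcb1b and Ces2h (vertical axes) on the 12 arrays, control in blue and 5% PSC in orange, with symbols for replicate numbers. Within each diet Abcb1b follows Ces2c (0.961 in controls and 0.990 in PSC-fed rats), whereas Ces2h does not rise with Ces2c (-0.44 over both diets after their means are taken off).

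On a list mostly of receptors and factors known to act on carboxylesterases, 3 of 18 measured genes rose and 0 fell by limma. The list also named Keap1 and Por. Over all genes 0.716% rose and 1.89% fell by the same rule, and the median of the list was 0.018. At an unadjusted p below 0.05, 4 were higher and 1 lower. Rxra, the partner of many nuclear receptors, rose by 0.32 (SE 0.06, adjusted p = 0.0186). The fatty acid receptor gene Ppara rose by 0.41 and the hepatocyte factor gene Cebpa by 0.30. Nr1i2, which encodes the drug sensor PXR, had 0.17 (adjusted p = 0.202), and Nr1i3, which encodes CAR, had -0.27 (adjusted p = 0.356). The calls of Ppara and Cebpa were lost in 8 and 11 of the 12 refits, and that of Rxra in 1, without control replicate 1.

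Of 26 measured targets of CAR and PXR, 2 rose and 3 fell, beside 0.716% and 1.89% of all genes, with a median of -0.0083. At an unadjusted limma p below 0.05, 5 were higher and 8 lower. Cyp2c55 and Cyp3a18, both cytochromes P450, had -2.49 and -1.12, and Abcb1b fell as given above. The sulfotransferase gene Sult2a1 and the glucuronosyltransferase gene Ugt2b1 rose by 2.32 and 0.88. The calls of Cyp3a18 and Ugt2b1 were lost in 8 and 4 of the 12 refits. Within diets Ces2c had a correlation of 0.694 with Cyp2c55, 0.534 with Cyp3a18, -0.603 with Sult2a1 and -0.050 with Ugt2b1. Ces2h had values between -0.32 and 0.33 with these 4 genes and -0.42 with Abcb1b. Of 20 NRF2 targets, 1 fell and 0 rose by limma (2 rose at an unadjusted p below 0.05). The gene that fell was Pir (-0.41, adjusted p = 0.0408, lost in 10 of the 12 fits without 1 array), and Gsta5 had 0.50 without passing. The median of that list was -0.026.

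Other hydrolases of esters and lipids gave 2 falls among 28 measured and 0 rises by limma, beside 1.89% and 0.716% of all genes, with a median of -0.011. At an unadjusted p below 0.05, 5 were lower and 3 higher, where at least 3359 of all 18166 genes had an unadjusted limma p of 0.047 or less. Lpl, which encodes lipoprotein lipase, and Ddhd2, a lipase gene, fell by 0.66 and 0.59 on the log2 scale (adjusted p = 0.013 and 0.0133). The monoacylglycerol hydrolase gene Abhd6 and the triglyceride lipase gene Pnpla2 had -0.25 and -0.30 and did not pass. In the assembly of very low density lipoprotein and triglyceride synthesis, 1 of 17 rose, Dgat2 (0.56, adjusted p = 0.0172), and 0 fell by limma (0 at an unadjusted p below 0.05), with a median of 0.038. Among 12 genes of retention and folding in the endoplasmic reticulum, 0 passed by limma and 1 was lower at an unadjusted p below 0.05, with a median of -0.07 and 10 of the 12 values below 0. The chaperone genes Hspa5 and Canx had -0.17 and -0.10.

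The arrays correlated at 0.987 to 0.995 with each other over all genes. Hepatocyte markers were bright, with a mean log2 signal of 11.98, and 0 of 10 passed by limma (1 higher at an unadjusted p below 0.05). For markers of other cells the counts of calls stand beside 1.89% of all genes lower and 0.716% higher, shares that hold for the adjusted p. Of 14 stellate cell markers 5 fell, Dcn and Col1a2 first, and 13 of the 14 values were below 0. Of 9 genes listed as bile duct markers 4 fell, Krt18 and Krt8 first, whose calls were lost in 1 and 5 of the 12 refits. Of that list 6 of the 9 values were below 0, and at an unadjusted p below 0.05, 5 were lower and 1 higher. Of 10 genes listed as adipocyte markers 2 fell, Fabp4 and Cidea, against the rest of their list. No other value of that list was below 0, its median was 0.048, and 2 were higher at an unadjusted p below 0.05. Rises were 1 of 13 Kupffer cell markers (Cd163, with Vsig4 next in p), 1 of 11 lymphocyte markers (Nkg7, with Prf1 next), 1 of 11 pericentral markers (Rgn, with Slc1a2 next) and 1 of 13 periportal markers (Uroc1, with Cyp2f4 next). At an unadjusted p below 0.05, 8 Kupffer cell, 8 lymphocyte, 3 pericentral and 6 periportal markers were higher. Over all genes, at least 3359 of the 18166 had an unadjusted limma p of 0.047 or less, in either direction. Of 11 genes listed as enterocyte markers 2 rose (Apoa4 among them) and 1 fell (Cdh17). Apoa4 had a mean log2 signal of 9.97, beside 5.48 over that list, and its cell of origin was not tested. The calls of Cd163, Nkg7 and Rgn were lost in 8, 4 and 9 of the 12 refits without 1 array. Those of Uroc1, Apoa4 and Cdh17 were lost in 4, 8 and 7. The sign of these genes did not turn in any refit, so what was lost was the adjusted p below 0.05. Of 7 endothelial and 11 pancreatic markers 0 passed by limma (2 higher and 1 lower, and 1 higher, at an unadjusted p below 0.05).

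The scores of some of these marker lists varied with Ces2c. The mean score of the bile duct markers ran from 0.041 to 0.19 in controls and from -0.17 to -0.063 in PSC-fed rats, and its within-diet correlation with Ces2c was 0.862 over 12 arrays. Krt18 and Krt8 of that list had mean log2 signals of 9.16 and 7.27, beside 5.70 over the list. Whether the signals of these markers came from bile duct cells was not tested. For the adipocyte markers the scores ran from 0.048 to 0.15 and from -0.27 to 0.087, with a correlation of 0.822. The lower adipocyte scores came with the falls of Fabp4 (-1.50) and Cidea (-1.07), since no other marker of that list was lower. Cidea was bright, with a mean log2 signal of 8.79, above that of 93.8% of the genes tested. Whether the signals of Fabp4 and Cidea came from adipocytes was not tested. For the stellate cell markers the scores ran from 0.074 to 0.29 and from -0.26 to 0.039, with 0.518. For the Kupffer cell markers, the scores ran from -0.79 to 0.11 and from -0.033 to 0.35, with -0.286. The same lists had values of -0.42, -0.45, -0.29 and 0.13 with Ces2h. Hepatocyte markers had -0.099 with Ces2c and 0.087 with Ces2h. Their part in the falls of Ces2c and Ces2h was not tested, and in whole liver fewer cells of a type and less RNA per cell cannot be told apart.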

How the data were processed

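Total RNA from liver pieces of about 20 mg was hybridised to 12 arrays. Per the submitters' processing notes, the authors used RMA in Affymetrix Expression Console to make the deposited log2 signals, 1 value per transcript cluster and array; no version is given in the sources read here. Nothing beyond these values was normalized. The number of arrays limits the precision.

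Clusters with 1 gene symbol in the platform annotation (18511 of 30347) were kept, and of several the brightest, which left 18166 genes. Diets were compared with the two-sided test of limma 3.58.1 in R 4.3.3, and p was adjusted by Benjamini-Hochberg across the genes. On simulated data the test recovered 40% of 20 genes changed by 0.3 in log2 signal. It recovered 83% of 100 genes changed by 0.5 and 99% of 100 changed by 1. Of its 205 calls there, 7.32% were on unchanged genes. A small change could thus be missed. For a list's score each gene was centred over the arrays and the genes were averaged on every array. Same-numbered rats are not paired by the labels, and their deviations correlated at -0.15 to 0.11. Promoters are from RefSeq. Figures used matplotlib 3.10.9.

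The members and lists were chosen with earlier results of these data known. Named are every member, for each list the genes with the smallest p (2 to 4), and for the members that passed the 3 genes most like them. Genes beyond this rule (Gusb, Cyp3a18, Nr1i2, Nr1i3 and Ces1dl1) were chosen after their values were seen.

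Alternatives were the replicate block, a variance prior with trend, array weights, quantile, median or cyclic loess scaling, a filter on dim genes, all clusters, a gene's clusters averaged, a threshold of 0.1 and leaving out each array.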

Additional observations from a re-analysis of the deposited data

Results flagged for a closer look

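Ces1dl1 had 1 array apart from the rest of its group. Control replicate 1 had a log2 signal of 5.19, where the next control lay at 4.92, a gap of 0.692 of the range of the 6 controls. It was the only 1 of 36 sets of 6 arrays looked at (6 members, 6 other carboxylesterase genes and 6 genes most like Ces2c or Ces2h, in each diet) to stand out so, where chance gives about 1 in 20.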

How the results depend on the processing

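The number of carboxylesterase members lower in PSC-fed rats, reported as 2, was 0 with the replicate block, 1 with all transcript clusters and 0 to 2 in the fits without 1 array, with 0 without control replicate 1. It was 2 with the other 8 alternatives, the threshold of 0.1 among them. The number of members higher was 0 under every alternative run. The replicate numbers are only numbers in the labels. With that block the adjusted p was 0.0569 for Ces2c and 0.0778 for Ces2h, and 16 genes in all rose and 78 fell, beside 130 and 343 in the reported fit. These counts were 82 and 584 with median centring, 176 and 539 without dim genes, 56 and 198 with all clusters, and 29 to 192 and 113 to 543 without 1 array, lowest without control replicate 1. With all clusters Ces2h had 0.0526. Without 1 array the log2 fold change of Ces2c ran from -1.09 to -0.88. Signs turned only for values near 0: Ces1e with array weights (0.0043) and cyclic loess (0.0057), Ces2j with a further quantile normalization (-0.036), median centring (-0.033) and cyclic loess (-0.050), Ces5a with array weights (-0.0029) and the same 3 scalings (-0.032, -0.03 and -0.040), and Gusb with quantile normalization (0.022) and cyclic loess (0.012). Without 1 array these 4 genes ran from -0.058 to 0.016, -0.044 to 0.050, -0.035 to 0.061 and -0.055 to 0.011. Of the values of single genes under all alternatives, 1227 kept direction and side of the threshold, 129 lost it, 21 gained it and 26 turned sign. The filter on dim genes gave no value for Ces2j, Ces1a or Ces2i. No detection calls were used, so low signals of Ces2i and Ces2j have no lower bound.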

Other observations

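The genes most like the members that did not pass, named after their values were seen, gave within-diet Pearson correlations over 12 arrays of 0.959 for Ces2e with Cd36l1, 0.918 for Ces1e with Zbtb21, 0.884 for Ces2a with Rnf14 and 0.934 for Ces2j with Czib. For Ces2e the value rested in part on its extreme arrays. It was 0.832 without the 2 arrays farthest from the median, 0.789 in the controls alone and 0.978 in the PSC-fed rats alone. Gsta4, a glutathione transferase gene and the third most like Ces2e at 0.895, had 0.618 without the 2 farthest arrays, 0.342 in the controls alone and 0.968 in the PSC-fed rats alone.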
